A study of Drosophila melanogaster with 19 samples.

Results

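The 3 libraries described here are the dose series of Btr192IV, an m6A methyltransferase, and were chosen by their labels as all Btr192IV libraries among the 19 libraries of the series. They were made by AdMTase-seq from S2-DRSC cells (labelled S2-DSRC), a Drosophila melanogaster embryonic cell line with hemocyte-like features. Nuclei received 0.6 U, 2 U or 6 U of Btr192IV for 20 min at 37 °C, 1 library per dose, and the methylated short fragments were pulled down with an anti-m6A antibody. Both controls came from cells labelled untreated: the untreated m6A-IP library, made with the same antibody, and the DNA input, for which the labels give no antibody. All libraries came from this one line, and the labels name neither a genotype nor separate cultures. The 14 other treated libraries, used below for comparison, were made with Hia5, EcoGI, EcoGII or Hin1523, most of them with Hia5. Counts over these 14 libraries are therefore not counts over 14 enzymes.

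Enzymes of this kind methylate adenines in DNA that they can reach. DNA wrapped around nucleosomes is shielded, while the nucleosome-poor DNA of active promoters and enhancers is open, so that at limiting enzyme the methylated fragments are drawn mainly from open sites. An antibody against m6A then recovers them, and a peak is a place where recovered fragments pile up above their surroundings. A peak list does not give an expression level.

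The authors deposited 1 peak list per library, thresholded at an FDR of 5% per the file names. Btr192IV gave 3692 peaks at 0.6 U, 3098 at 2 U and 1425 at 6 U, covering 654, 540.5 and 211 kb. There were 1974 untreated peaks over 373 kb, and 32 input peaks over 4.16 kb. Median peak width was 160, 156 and 130 bp at 0.6, 2 and 6 U, against 155.5 bp in the untreated library. Heights in each list, checked for all but the tallest peaks, were whole multiples of 1 step (tolerance 0.05 of it). Its inverse, taken as a relative depth on the assumption that 1 step stands for 1 fragment or read, was 8.78, 8.71 and 7.41 at 0.6, 2 and 6 U. It was 11.3 for untreated cells and 0.673 for input. By this measure the 6 U library was the lowest of the 3. Read totals are not given, so the depth itself is unknown, and its part in the shorter list was not tested. With 1 library per dose no difference between doses carries a test. The 95% Wilson intervals given with shares cover counting error only, and neighbouring peaks are not independent.

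Peaks of the 3 lists that shared at least 1 bp were merged into 4812 regions on build dm6. Most regions did not reach the highest dose. A peak at each of the 3 doses was found in 905 regions (18.8%), called kept. A further 2601 regions (54.05%) had a peak at 0.6 U and none at 6 U and are called lost, of which 1386 were in the 0.6 U list alone and 1215 were also in the 2 U list. Only 264 regions (5.49%) were in the 6 U list alone, called gained. The rest were 809 regions at 2 U alone, 119 at 0.6 and 6 U, and 114 at 2 and 6 U. These names say in which lists a region stood, and a lost region may still have carried signal under the authors' threshold. The plot of regions by dose pattern shows that most gene-end regions had no 6 U peak: 500 were in the 0.6 U list alone and 487 in the 0.6 and 2 U lists, against 261 at all 3 doses.

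**Figure D1:**
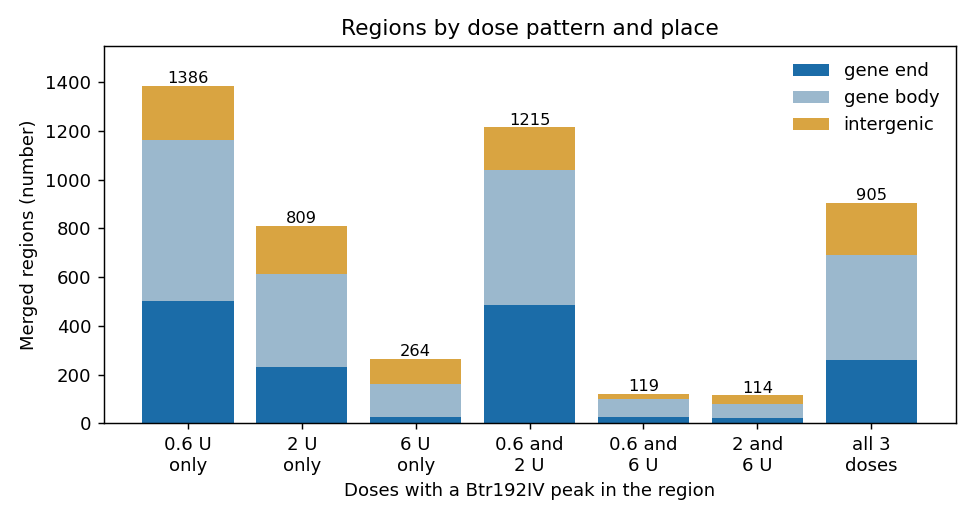
Number of merged Btr192IV regions (y axis) for each combination of doses with a peak (x axis), with bars divided by place relative to genes and the total above each bar. The bars without a 6 U peak, 1386, 809 and 1215 regions, stand above the 264 regions found at 6 U alone, and 905 regions were found at all 3 doses.

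From list to list, 59.02% of 0.6 U peaks (57.4 to 60.6) overlapped a 2 U peak and 28.1% (26.7 to 29.6) a 6 U peak. In the other direction, 72.98% of 6 U peaks overlapped a 0.6 U peak and 72.5% a 2 U peak. The shorter list was therefore mostly contained in the longer ones. Within kept regions that had a single peak at each dose (864 of 905), the median peak width was 211.5 bp at 0.6 U, 211 bp at 2 U and 148 bp at 6 U. The 6 U peak was the narrower in 586 of these regions and the wider in 217, and the widths were equal in 61.

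Genes were assigned a peak when it touched a window of 500 bp on either side of an annotated gene end. The gene table, RefSeq's for the release 6 assembly, gives no strand, so 5′ and 3′ ends are not separated, and left and right below mean lower and higher coordinate. A gene-end peak was present at 1310 of 13946 protein-coding genes at 0.6 U (9.39%), at 977 at 2 U (7.01%) and at 264 at 6 U (1.89%), against 182 (1.31%) in the untreated library. By gene, 203 were kept at all 3 doses (1.46%), 1080 were lost from 0.6 to 6 U (7.74%) and 19 were gained at 6 U (0.136%). Of the lost genes, 22 had a 0.6 U gene-end peak that overlapped a 6 U peak ending short of the window, and 104 had a 6 U peak somewhere in the gene or its windows' span.

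Among the highest-ranked genes kept at all 3 doses were cbt, Sdc, bnl and stg. Kept genes were ranked by the percentile of their highest gene-end peak within each list (100 being the highest peak), after leaving out genes with an untreated or input peak at a gene end. First was cbt (cabut, a zinc finger transcription factor), on 2L, with percentiles of 97.3, 94.5 and 91.7 (0.6, 2 and 6 U). Its highest peak lay at 480161 to 480400 at 0.6 U and at 480179 to 480386 at 6 U, beyond the right end of the gene at 479688, and at 2 U the highest was a neighbouring peak at 479715 to 479996. Sdc (syndecan, a heparan sulfate proteoglycan of the cell surface), on 2R, stood at 96.4, 95.4 and 84.0, with peaks of 240, 260 and 204 bp near its right end. The right end of bnl (branchless, the FGF ligand that guides tracheal branching), on 3R, carried the same interval, 19836821 to 19837100, at 0.6 and 6 U, and percentiles of 93.2, 93.7 and 87.3. stg (string, the Cdc25 phosphatase that triggers entry into mitosis), also on 3R, stood at 93.9, 89.3 and 85.3.

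The other kept genes at the top of the ranking were Tango14, CG15022, Mes2, jim (a zinc finger protein gene), scny (scrawny, a ubiquitin protease) and ttk (tramtrack, a BTB zinc finger repressor). Their mean percentile over the 3 lists ran from 93.5 for Tango14 to 88.9 for ttk. ttk stood at 94.6, 94.7 and 77.4, and its 2 U peak, at 700 bp, was the widest among them, against 60 bp for the highest 0.6 U peak and 243 bp for the highest 6 U peak. The peaks of Tango14 and CG15022 overlapped untreated peaks that lay outside these genes' own windows, and each peak was shared with a neighbour (capt and CG15023) that does count as marked in the untreated library. Sdc and bnl also had a gene-end peak in all 14 treated libraries of the other enzymes, jim, ttk and Tango14 in 13, Mes2 in 12, cbt and scny in 11, and CG15022 and stg in 10.

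Kept genes also marked in untreated cells numbered 34 of 203, or 16.7%, against 49 of 1080 (4.54%) among lost genes and 1 of 19 among gained genes. The highest was CG44666 on 2R, with percentiles of 98.2, 98.4 and 97.6 and an identical interval, 20780461 to 20780615, at all 3 doses. dmrt99B, a gene of the doublesex-related transcription factor family on 3R, stood at 97.3, 97.1 and 94.8. eIF5B, a translation initiation factor gene on 3L, stood at 97.8, 96.9 and 93.5. CG40635, at the left tip of Y, stood at 98.2, 97.4 and 91.1. Its peak was shared with annotated Su(Ste) copies, a multicopy family, so its assignment to 1 locus is uncertain. capt (capulet, an actin-binding cyclase-associated protein), on 2L, shared its peaks with Tango14. For all 5 genes the peak overlapped the untreated peak at each of the 3 doses.

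Genes lost from 0.6 to 6 U included sites that were among the highest at the lower doses. sty (sprouty, which dampens receptor tyrosine kinase signals), on 3L, stood at the 98.3 percentile at 0.6 U and 97.3 at 2 U, with peaks at 3400735 to 3400991 and 3400734 to 3400986, and had no gene-end peak at 6 U. The nearest 6 U peak lay 17384 bp away. A region inside sty, at 3418341 to 3418660, was kept, with percentiles of 99.2, 99.2 and 97.8. kay (the fly Fos, a partner in AP-1), on 3R, stood at 98.0 and 97.4 at the lower doses, and its nearest 6 U peak was 7086 bp off. Paics (an enzyme of purine synthesis), on X, stood at 97.2 and 95.4, with no 6 U peak within 49954 bp. zfh1 (a transcription factor of blood and muscle precursors) stood at 94.4 and 94.2 and its nearest 6 U peak was 8269 bp away.

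The other lost genes among the 10 highest were CG45544 (96.7 at 0.6 U and no gene-end peak at 2 U), the neighbours ATPsyngamma (the gamma subunit of ATP synthase) and yata at 1 shared peak (95.1 and 96.6), Hers (94.6 and 93.5), PH4alphaEFB (a prolyl hydroxylase that modifies collagen; 94.0 and 93.9) and CG9932 (93.9 and 86.0). PH4alphaEFB counts as lost only through the window, since a 6 U peak overlapped its 0.6 U peak at 30466541 to 30466780. CG45544 lies beside stg, and its nearest 6 U peak was 1391 bp away. The highest lost genes also marked in untreated cells were Reg-2 (95.1 at 0.6 U), Grip71 (a gamma-tubulin ring component; 92.0), Rev1 (a translesion DNA polymerase; 91.3), a gene on 2R from 5754517 to 5756327 (87.7) and Col4a1 (a collagen IV chain; 86.6). Grip71 is another gene lost through the window, with a 6 U peak under its 0.6 U peak. The 0.6 U peaks of Reg-2, Rev1 and Col4a1 did not themselves overlap the untreated peak. Of these 15 lost genes, all had a gene-end peak in at least 8 of the 14 other treated libraries, and sty, kay and Col4a1 in 13.

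Genes gained at 6 U were few, and most ranked low in the 6 U list. CG15021, on 3L, was the exception at the 84.0 percentile, with a 520 bp peak at 4437221 to 4437740. It was followed by slp2 (sloppy paired 2, a forkhead segmentation gene) at 45.4, CG11041 and CG40198 at 33.7, CG13995 and kto (the Mediator subunit Med12) at 23.3, SCOT (a ketone body enzyme) at 21.2, sff (a kinase) at 14.9, CG13376 at 13.8 and CG11737 at 11.5. Their peaks other than that of CG15021 were 36 to 186 bp wide. The 1 gained gene also marked in untreated cells was CG5254, on X, at 16.2. Gained genes had a gene-end peak in a median of 3 of the 14 other treated libraries, against 12 for kept genes and 8 for lost genes. CG11737 had one in 11 of them and slp2 in 8, while CG11041 and sff had one in 1. These counts take any peak at either gene end. In the gained slp2 region itself, 1 of the 14 had a peak.

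The 3 classes differed by more than their counting intervals in the shares at gene ends and between genes. A region was counted at a gene end if it touched a gene-end window, in a gene body if it lay elsewhere in a gene, and intergenic otherwise. Median region width was 252 bp for kept, 164 bp for lost and 89 bp for gained regions. A wider region touches a window or a peak more easily, and the part of width was not tested. The shares of the sequence count bases, whereas 1 bp of a region was enough. Gene ends took 28.8% of kept regions (26.0 to 31.9), 37.9% of lost regions (36.1 to 39.8) and 10.2% of gained regions (7.12 to 14.5). They took 13.8% of untreated peaks (12.4 to 15.4), and the windows themselves make up 17.6% of the sequence up to the last annotated gene of each chromosome. Intergenic regions were 23.6% of the kept, 15.2% of the lost and 38.6% of the gained regions, against 40.4% of untreated peaks and 26.5% of the sequence. Gene bodies took 47.5%, 46.8% and 51.1%, and 45.7% of untreated peaks, with overlapping intervals among the 3 classes. Of the gene-end regions, 72 of 261 kept, 369 of 987 lost and 3 of 27 gained touched the windows of 2 or more genes.

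**Figure D2:**
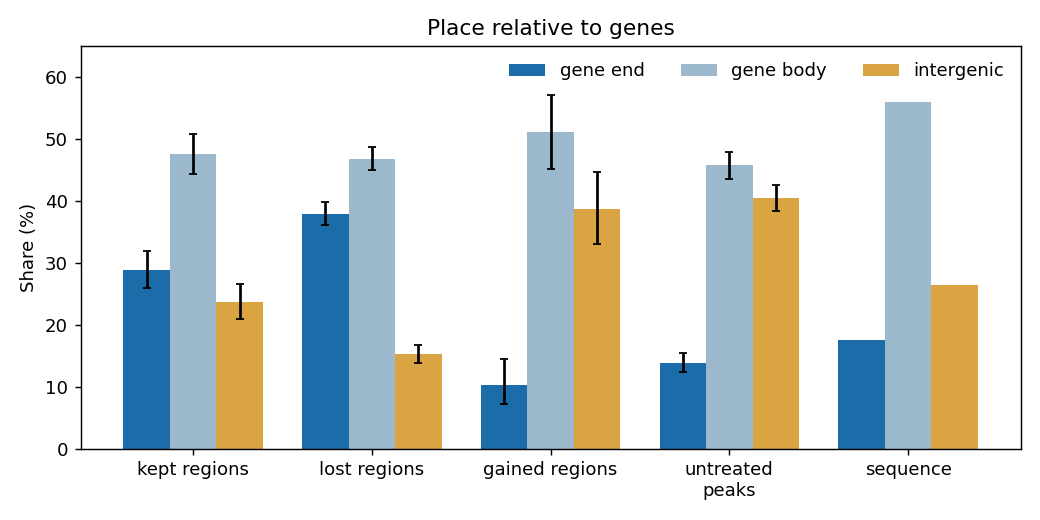
Share in percent (y axis) of kept, lost and gained Btr192IV regions, of untreated peaks and of the sequence that lay at gene ends, in gene bodies and between genes, with 95% Wilson intervals on the peak sets. Gene ends took 28.8%, 37.9% and 10.2% of the 3 classes, against 13.8% of untreated peaks and 17.6% of the sequence.

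By library, from low to high dose, gene ends took 34.7%, 31.8% and 22.3% of peaks. When each list was cut to its 1425 highest peaks, the length of the 6 U list, the shares were 36.5%, 32.9% and 22.3%, and intergenic peaks took 15.3%, 15.9% and 26.8%. The lower gene-end share at 6 U was therefore present at equal list length. Median width in the equal lists was 220, 213 and 130 bp.

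The height of a peak in the 0.6 U list went with whether it was found again. Of the lowest decile of that list in height, 32.3% overlapped a 2 U peak and 9.94% a 6 U peak. Of the highest decile, 88.8% did so at 2 U and 61.04% at 6 U. Between these ends the 2 courses differed in shape: overlap with 2 U increased from 46.3% in the third decile to 60.0% in the seventh, while overlap with 6 U lay between 23.8% and 27.2% over the same deciles. Lost regions had a median percentile of 45.0 in the 0.6 U list, against 70.1 for kept regions. Gained regions had a median percentile of 21.2 in the 6 U list, against 62.4 for kept regions. Of the lowest decile of the 6 U list, 31.2% overlapped a 0.6 U peak (24.2 to 39.2), and of the highest decile 97.2% (93.1 to 98.9).

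**Figure D3:**
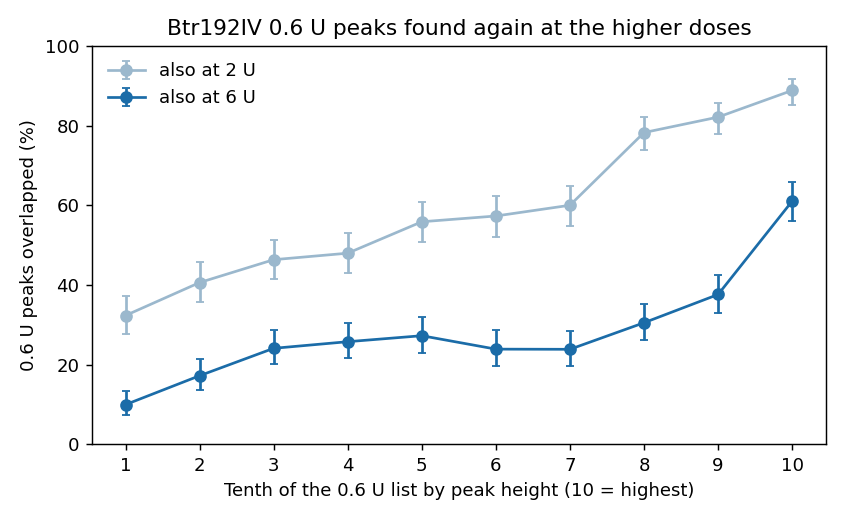
Share in percent (y axis, with 95% Wilson intervals) of Btr192IV 0.6 U peaks that overlapped a 2 U or a 6 U peak, by height decile of the 0.6 U list (x axis, 10 being the highest). Overlap with 6 U lies between 23.8% and 27.2% from the third to the seventh decile and reaches 61.04% in the highest.

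Away from untreated peaks, the share found again at 6 U was lowest at gene ends. Among 0.6 U peaks outside untreated peaks, 19.2% of the 1170 at gene ends overlapped a 6 U peak (17.1 to 21.6), against 25.6% of the 1537 in gene bodies (23.5 to 27.9) and 25.4% of the 433 intergenic peaks (21.5 to 29.7). At 2 U the 3 shares were 56.7%, 56.3% and 52.4%. The difference at 6 U was not spread evenly over heights. In the second quartile of the list 11.7% of gene-end peaks were found again (8.64 to 15.6), against 28.5% of gene-body peaks (24.3 to 33.2). In the highest quartile the shares were 41.1% (35.2 to 47.3) and 37.5% (32.9 to 42.3).

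Overlap with the untreated library was highest in kept regions. Of kept regions, 272 of 905 (30.1%, 27.2 to 33.1) overlapped an untreated peak, of lost regions 234 of 2601 (8.997%, 7.96 to 10.2) and of gained regions 46 of 264 (17.4%, 13.3 to 22.5). The classes also differed in region width, as given above, and its part in these shares was not tested. By library, from low to high dose, the share was 14.95%, 18.3% and 26.2%, while untreated peaks covered 0.272% of the sequence, counted in bases. In lists of equal length it was 15.8%, 19.6% and 26.2%. The number of peaks that overlapped was 552, 568 and 374, so the share was higher at 6 U although the number was lower. Seen from the untreated library, 28.4% of its 1974 peaks overlapped a 0.6 U peak, 29.5% a 2 U peak and 19.4% a 6 U peak.

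**Figure D4:**
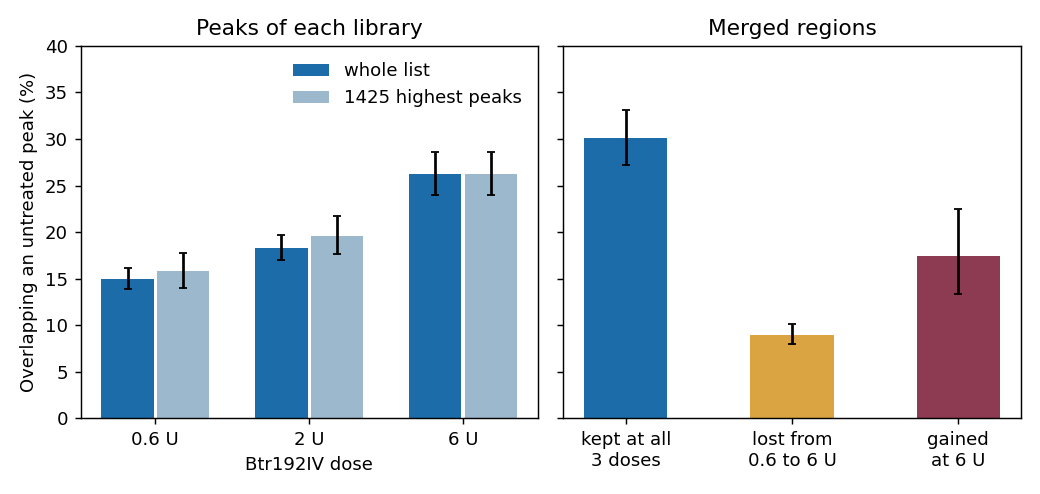
Left, share in percent (y axis) of the peaks of each Btr192IV library that overlapped an untreated peak, by dose (x axis), for whole lists and for the 1425 highest peaks. Right, the same share for kept, lost and gained regions. Bars carry 95% Wilson intervals, and the share is 26.2% at 6 U and 14.95% at 0.6 U in whole lists, and 30.1% in kept and 8.997% in lost regions.

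A 0.6 U peak that lay in an untreated peak was found again at 6 U in 56.2% of cases (51.99 to 60.2), against 23.2% (21.8 to 24.7) of peaks outside untreated peaks. The 2 sets differed in height: 101 of the 362 peaks in the lowest decile of the 0.6 U list (27.9%) and 109 of the 367 in the highest (29.7%) lay in untreated peaks, against 8.75% to 14.2% in the deciles between. The part of height in the higher share was not tested. Kept regions in untreated peaks were intergenic in 41.9% and at gene ends in 22.1%, and those outside untreated peaks in 15.8% and 31.8%. Gained regions in untreated peaks were intergenic in 67.4%, and those outside in 32.6%. Dense runs, defined as at least 5 successive peaks of 1 list with gaps under 500 bp, held 13.2% of kept regions in untreated peaks and 0.474% of those outside. They held 436 of the 1974 untreated peaks.

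Each dose overlapped 31 of the 32 input peaks, all in the kept class: 31 kept regions overlapped an input peak, 21 of them on X, and no lost or gained region did. The 5 highest kept regions were all of this kind, on X between 23216041 and 23472600, with percentiles of at least 99.7 in every list. Of these, 3 lay in or at annotated ribosomal RNA pseudogenes (28SrRNA-Psi:CR45859 and 18SrRNA-Psi:CR45861), whose sequence is repeated, so reads there cannot be assigned to 1 copy with certainty. Outside control peaks the highest kept region was the one inside sty. It was followed by 1 in lncRNA:CR43334 (3L, 633401 to 633695), 1 at the right end of ap (apterous, which specifies the dorsal wing; 2R, 5726781 to 5727260), 1 in lncRNA:CR44953 (3R, 29757401 to 29757780) and an intergenic region on 3L (626741 to 627180). The ap region had percentiles of 99.3, 99.1 and 97.2, although ap is not among the kept genes because its 2 U peak ended short of the window.

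The highest lost regions lay in the same stretches of the genome as some of the highest kept ones. lncRNA:CR43334 held lost regions at 639421 to 639727 and 640341 to 640700 on 3L, with percentiles of 98.6 and 98.9 at 0.6 U, and the nearest 6 U peaks were 5776 and 6696 bp away. A region inside kay, at 29771961 to 29772280, stood at 98.7 and 98.0, and the nearest 6 U peak was 453 bp away. The others of the first 5 were at the ends of lncRNA:CR42719 and lncRNA:CR44526 on 3L. The 5 highest gained regions were all intergenic, 4 on 3L and 1 on 2R at 5741981 to 5742443, right of ap, with 6 U percentiles of 94.7 to 89.9, and 3 of them overlapped an untreated peak. Few lost regions (84 of 2601, or 3.23%) had a 6 U peak within 500 bp.

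In windows of 50 kb, chosen after their values were seen, kept regions were most frequent on X. The window from 23200001 to 23250000 held 24 kept among 27 regions, and the next, from 23250001 to 23300000, held 18 among 19. They hold no protein-coding gene in the table, and 25 and 18 of their regions overlapped an untreated peak. The highest-ranked window without an untreated peak was on 2R from 6100001 to 6150000 in EcR (the ecdysone receptor), with 6 kept and 5 lost regions. Lost regions were most frequent on 2L from 23050001 to 23100000, beside Spf45, with 30 lost and 3 kept regions, and 34 of the 41 regions there overlapped an untreated peak. On 3L from 7650001 to 7700000 all 20 regions were lost and 2 overlapped an untreated peak. On 2L from 13050001 to 13100000, at CG9932, 17 of 19 were lost. Gained regions were most frequent at 7 each on 4 from 1300001 to 1350000 and on Y from 950001 to 1000000, where 9 of 10 and 11 of 13 regions overlapped untreated peaks.

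Inside gene bodies, away from gene ends and control peaks, kept regions were most frequent in EcR and Eip74EF (an ecdysone-induced Ets factor), with 4 each beside 6 and 4 lost regions. CAP, stx, tara and tou held 3 each. Lost regions were most frequent in the overlapping genes Ank2 (an ankyrin) and CG32373, with 16 each and no kept or gained region, and CG44195, which overlaps both, with 15. Further long genes with lost regions alone were Marf1 with 13, fru (fruitless, a BTB zinc finger factor of the sex determination pathway) with 11, shn (schnurri, a zinc finger factor of Dpp signalling) with 9, and Smr (a corepressor) and zfh2 with 8 each. Hsp110 held 3 gained regions and 1 kept one, and E2f1 (a cell cycle transcription factor) 2 gained and 2 lost. These counts depend on gene length, which ran from 6.67 kb for Hsp110 to 131 kb for fru among the genes just named.

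Gene lists for S2 cells were then read against the shares of all protein-coding genes with a gene-end peak, 9.39% at 0.6 U, 7.01% at 2 U and 1.89% at 6 U. Genes of the Hox and segmentation list, transcription factors and signals of body patterning and known Polycomb targets, had 8 of 18 members (44.4%) marked at the lowest dose, 6 (33.3%) at 2 U and 4 (22.2%) at 6 U. abd-A, a Hox gene, was kept with percentiles of 40.9, 32.6 and 19.5. en (engrailed) stood at 80.8, 63.5 and 21.2, and wg (wingless, the Wnt ligand) at 80.2, 63.5 and 36.2. Peaks over wg were 340, 315 and 63 bp wide, and those over en 320, 331 and 140 bp. The fourth at 6 U was ap, discussed above. lab, Dfd, Dll and vg were lost.

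The JNK, AP-1 and stress list had 4 of 9 members marked at each of the lower doses, and 2 at 6 U. These 2, kept, were cbt and Atf3 (a bZIP factor; 73.1, 37.9 and 43.3), while kay and Ets21C (90.2 and 87.4) were lost. Of the hemocyte and basement membrane list, 5 of 16 members were marked at 0.6 U (31.25%), 4 at 2 U and 1 at 6 U. The Hox and JNK lists had 44.4% each at 0.6 U, so the list cannot check the labelled cell type. The 1 at 6 U was gcm2 (a glial and hemocyte fate factor), with percentiles of 33.5, 60.9 and 76.3 in the 3 lists. zfh1, Col4a1, vkg (the other collagen IV chain) and lz (a Runx factor of crystal cells) were lost. The remaining 11 members, among them srp, Hml, NimC1 and eater, had no gene-end peak at any dose. Toll and Imd genes had 6 of 14, 5 and 1, the kept one being imd (the adaptor of the Imd pathway; 73.1, 78.4 and 47.6), while Tl, cact, dl, tub and Myd88 were lost. Of all protein-coding genes 9.39%, 7.01% and 1.89% were marked at 0.6, 2 and 6 U. In the hemocyte and the Toll and Imd lists, 1 member at 6 U is too few to set apart from the last share.

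Housekeeping lists had at most 2 marked members at 6 U, too few to set apart from the 1.89% of all protein-coding genes. Of 93 cytoplasmic ribosomal protein genes 13 (13.98%) were marked at the lowest dose, 7 (7.53%) at 2 U and 2 (2.15%) at 6 U, of which RpS19b was kept (68.1, 51.5 and 41.5) and RpL26 was found at 0.6 and 6 U. Glycolysis genes had 4 of 12 (33.3%), 5 (41.7%) and 0, with Hex-A, Ald1, Tpi and Pgk lost. The proteasome list had 2 of 48 (4.17%), 3 (6.25%) and 0, against 9.39%, 7.01% and 1.89% of all protein-coding genes. Cell cycle and spindle genes had 5 of 16, 6 and 1, where stg was kept and CycA, CycB, CycB3 and ncd (a minus-end kinesin) were lost. The EGF receptor list had 3 of 11, 2 and 0 (sty, pnt and rho lost), the Polycomb group 2 of 14, 2 and 0 (Psc and Su(z)2 lost) and ecdysone response genes 2 of 11, 4 and 0. Of 11 insulator and architectural protein genes 0 had a gene-end peak at any dose, and so short a list cannot be told from the all-gene shares. Among heat shock genes 1 of 14 was marked, Hsp70Ba, kept at 76.0, 55.8 and 9.89, and since Hsp70 copies are nearly identical this assignment is uncertain.

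Of 179 chemoreceptor genes 4 (2.23%) had a gene-end peak at 0.6 U, 2 (1.12%) at 2 U and 1 (0.559%) at 6 U (Gr77a, also at 2 U), against 9.39%, 7.01% and 1.89% of all protein-coding genes. Of 117 cuticle protein genes the counts were 5 (4.27%), 6 (5.13%) and 1 (0.855%), and at 2 and 6 U these lay within a few genes of the background share. The cuticle gene at 6 U, Cpr49Ab, was kept at 82.3, 83.0 and 85.8. Of 290 transfer RNA genes 8 (2.76%) were marked at the lowest dose and 5 (1.72%) at each of the others, against 8.88%, 6.73% and 2.12% of all 17807 genes. By class 3 of the 290 were kept, 5 lost and 2 gained, and 1 was marked in untreated cells. Of all genes 1.64% were kept, 7.05% lost, 0.174% gained and 1.42% marked in untreated cells. The kept and gained counts lay within a few genes of these shares. tRNA:Arg-ACG-1-1 was kept at 97.1, 95.5 and 82.1, tRNA:Ser-TGA-1-1 and tRNA:Ser-TGA-2-1 were kept at 1 shared peak next to Fib, and tRNA:Arg-TCG-2-2 and tRNA:Tyr-GTA-1-9 were gained (17.9 and 5.12 at 6 U).

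Regions kept at all 3 doses were also found with the other enzymes. Of the 14 other treated libraries, a median of 12 had a peak in a kept region, 8 in a lost region and 2 in a gained region. All 14 had one in 179 kept regions (19.8%), 13 lost regions (0.4998%) and no gained region. None of the 14 had one in 1 kept region, 83 lost regions (3.19%) and 41 gained regions (15.5%). Over all 4812 regions the median was 8, as in lost regions, with all 14 in 4.05% and none in 4.38%. Kept regions were also the widest and stood higher in the lists, and the part of width and height was not tested. Outside untreated peaks the medians were 11, 8 and 2. There, all 14 had a peak in 58 of 633 kept regions (9.16%), 1 of 2367 lost regions and no gained region. The other 121 of the 179 kept regions and 12 of the 13 lost ones overlapped an untreated peak. The long list of EcoGII at 6 U overlapped 99.2% of kept, 90.5% of lost and 68.6% of gained regions. Hia5 at 0.6 U overlapped 77.1%, 73.4% and 12.9%. Its libraries at 2 U (2 replicates) overlapped 19.7% and 26.1% of gained regions, those at 6 U 12.5% and 22.3%, and those at 20, 60 and 200 U 22.3%, 10.6% and 38.6%, with no steady course over dose. For lost regions the shares were 67.2% and 74.5% at 2 U, 35.4% and 26.6% at 6 U, and 21.95%, 4.92% and 15.3% at 20, 60 and 200 U.

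**Figure D5:**
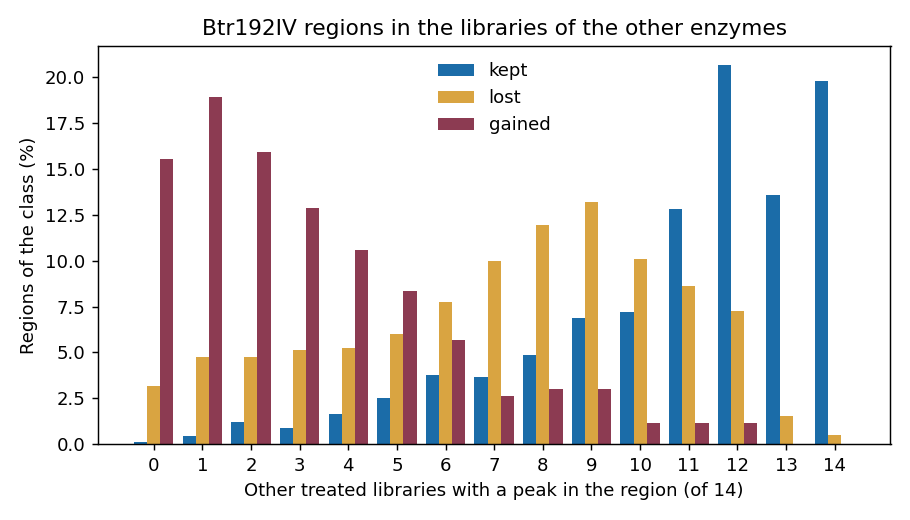
Share in percent (y axis) of kept, lost and gained Btr192IV regions by the number of the 14 treated libraries of other enzymes that had a peak in the region (x axis). Kept regions gather at 11 to 14 libraries, lost regions peak at 9 and gained regions at 1.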

How the data were processed

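The authors deposited 1 list of peaks per library with a height per peak in their tag-density signal, a coverage-like signal of unstated scaling. BWA 0.7.12, SAMtools 1.2 and dm6 are named in the submitters' processing notes. The FDR of 5% is per the file names. The peak caller, its use of the input and the read totals: not given in the sources used here. Heights were used to rank peaks within a list and, through their common step, for a relative depth per library. Starts were made 1-based. Merging, overlap (at least 1 bp), dense runs and gene-end windows were computed in Python 3.11.15 with numpy 2.4.6, pandas 2.3.3 and scipy 1.17.1 (Wilson intervals), and tested on simulated peaks. The gene table has 17807 genes on 7 chromosomes. No genome sequence was used here, so no sequence is shown. In the Polycomb list 14 of 15 written names matched.

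Groups follow the sample titles. No test was run, since each dose is 1 library. Named genes were, per class, the 10 highest protein-coding genes without an untreated or input peak at a gene end and the 5 highest with an untreated one, the 5 highest regions, and list members kept or gained. Other list members, 50 kb windows, gene bodies and regions outside control peaks were named after their values were seen. Members and lists were chosen with earlier results of these data known. Alternatives varied list length, height threshold, overlap, merging distance (150 bp), gene-end window (200 and 1000 bp), control peaks, dense runs and chromosomes.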

Additional observations from a re-analysis of the deposited data

How the results depend on the processing

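Of 87 values under 9 alternatives, 59 stayed within the interval of the reported share or within 1.5 times the reported count, and 28 did not. Under each alternative that gave the shares, the gene-end share was higher in lost than in kept regions and lowest in gained regions, and untreated overlap was highest in kept and lowest in lost regions. In lists of equal length there were 490 kept, 854 lost and 715 gained regions and 119, 330 and 90 protein-coding genes, with 34.5% of kept regions at gene ends and 6.67% of lost regions in untreated peaks; fewer peaks at 0.6 and 2 U leave more 6 U peaks unmatched by construction. With the higher 50% of each list there were 460, 1311 and 129 regions and 103, 549 and 7 genes, with 32.4% of kept regions at gene ends, and 37.4% of kept and 7.09% of lost regions in untreated peaks. Gene-end windows of 200 bp gave shares of 18.3%, 25% and 4.55% for kept, lost and gained regions and 92, 665 and 7 genes. Windows of 1000 bp gave 37.9%, 48.6% and 20.5%, with 350 kept and 42 gained genes. No value moved that far with an overlap of 50% of the shorter peak, with peaks up to 150 bp apart merged, without control peaks, without dense runs in the Btr192IV lists, or on the major arms alone. No paired analysis was possible because each dose is 1 library and no result comes from a test. With 1 library per dose, the spread between libraries of a dose is unknown, and the number of gained regions rests most on list length.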

Other observations

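Peaks on X stood lower in the Btr192IV lists than those on the autosomal arms. At 0.6 U the median percentile of 568 peaks on X was 28.0, against 51.0 on 2L, 57.2 on 2R, 56.2 on 3L and 49.5 on 3R. At 6 U it was 23.3 for 250 peaks on X, against 47.6 to 57.9 on those 4 arms, although the highest peaks of all lists also lie on X. Of the X peaks, 22.7% at 0.6 U and 41.6% at 6 U overlapped an untreated peak, against 10.7% to 15% and 16.8% to 24.2% on the 4 arms.

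The small chromosomes differed from the arms in how the classes were divided. On Y there were 16 kept, 3 lost and 7 gained regions, and on 4 there were 7 kept, 27 lost and 8 gained. Of the 19 peaks on Y at 0.6 U, 17 overlapped an untreated peak and 16 overlapped a 6 U peak. The gained regions on 4 lay mostly in 1 window, 7 of 8 between 1300001 and 1350000, and 7 of the 8 overlapped an untreated peak.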
